A study of Mus musculus with 6 samples.

Results

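The axon guidance ligands and receptors described here are the genes of the semaphorin, plexin, neuropilin, ephrin, Eph receptor, Slit, Robo, netrin and Unc5 families on an Illumina bead array of mouse transcripts. They were matched by gene symbol, with earlier results of these data known, and 67 of the 16593 genes named on the array matched, through 102 probes. Of these, 55 probes of 41 genes had a detection p-value under 0.05 on 3 or more of the 6 arrays and were tested. RNA came from brain tumours that grew from cells transplanted into SCID mice (a strain without functional lymphocytes of the T and B lineages) and that were collected once neurological symptoms appeared. The 3 Olig2cre/cre tumours carried cre at both Olig2 alleles, and the 3 Olig2cre/+ tumours carried cre at 1 Olig2 allele. Tumours of both groups also carried floxed p53 alleles (p53fl/fl) and hEGFRvIII, a human EGF receptor that lacks part of its ligand-binding domain and signals without ligand. Olig2 is a transcription factor of the oligodendrocyte lineage. The labels give replicates 1, 2 and 3 of each group ages of 45, 50 and 47 days, and they do not say which promoter drives hEGFRvIII or whether tumours of a group came from separate cell lines. The p-values therefore measure only the spread between these tumours.

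Guidance molecules steer growing axons and migrating cells by attraction and repulsion. Secreted class 3 semaphorins bind neuropilins, which signal through plexins, while the membrane-bound semaphorins mostly bind plexins directly. Ephrins are bound to the membrane and are read by Eph receptor tyrosine kinases on neighbouring cells, often with signalling in both cells. Slits repel cells that carry Robo receptors, and netrins attract through Dcc and repel through Unc5 receptors. Outside the nervous system the same families shape blood vessels, where ephrin-B2 marks arteries and its receptor EphB4 marks veins, and glioma cells use them in migration. Dcc is not analysed here. Unc50 and Unc5cl matched by name although they are not netrin receptors, and neither was detected on any array.

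Values are log2 intensities after background correction and quantile normalization, and differences are Olig2cre/cre minus Olig2cre/+ given with the standard error (SE) that limma moderates over all 14606 tested probes. A gene with several tested probes is represented by its brightest one, and a call means an adjusted p under 0.05 (Benjamini-Hochberg over all tested probes). Each array detected 53.4% to 57.6% of its 25697 probes. The Olig2cre/cre tumours differed among themselves. Over tested probes replicates 1 and 2 correlated at r = 0.912, and replicate 3 correlated with replicates 1 and 2 at 0.886 and 0.928. With Olig2cre/+ replicates 1 to 3, Olig2cre/cre replicate 3 correlated at 0.941, 0.935 and 0.914. For Olig2cre/cre replicate 1 these were 0.837, 0.815 and 0.766. Counts of calls are therefore also given without each tumour in turn. The Olig2 probe read 6.41, 5.86 and 6.44 in Olig2cre/cre replicates 1 to 3 and 7.76, 7.85 and 7.13 in Olig2cre/+ replicates 1 to 3, a difference of -1.34 ± 0.30 (SE, n = 3 per group) that missed the threshold (limma adjusted p = 0.0555). It was detected on all 6 arrays, and whether it lies in the sequence that the cre allele replaces is not given in the sources used here, so it checks the labels only in part.

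Of the 41 tested guidance genes, 5 passed the threshold. Plxnb3, Epha5 and Efnb3 fell in the Olig2cre/cre tumours, and Ephb4 and Sema4b rose. These are 12.2% of the tested guidance genes, where 4.78% of all 9998 tested genes passed (2.83% higher and 1.95% lower). At an unadjusted p under 0.05 the count was 23 guidance genes, 11 higher and 12 lower, against a background of 26.0%. Counted by probe, 6 of 55 guidance probes passed, against 4.42% of all tested probes. The groups lay fully apart for 24 of the 41 genes, 12 higher and 12 lower, against 32.5% of all tested genes (16.1% higher and 16.4% lower). Because 18 of the 41 genes were undetected on at least 1 array, and some of these entered the test only through the group in which they were brighter, the count was also taken over genes detected on all 6 arrays. There the groups did not overlap for 14 of 23 guidance genes, 10 higher and 4 lower, against 31.5% of all genes so detected. Of the 5 calls, Plxnb3, Epha5 and Efnb3 were each detected in only 1 Olig2cre/cre tumour. With the fit limited to probes detected on all 6 arrays, 1 of the 23 guidance genes passed (Sema4b), and 472 of 11698 probes. The median difference over the 41 genes was -0.04, and 0.00 over all tested genes. The median absolute difference was 1.12, against 0.42 over all tested genes. No test sets these shares apart from the background.

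Whether the 5 genes passed the threshold depended on which tumours were in the fit. A fit without 1 tumour also has fewer arrays, and the effect of that on the calls cannot be told apart from that of the tumour. Over these fits the differences ran from -3.56 to -3.02 for Plxnb3, -2.06 to -1.55 for Epha5 and -1.64 to -1.23 for Efnb3. They ran from 1.17 to 1.50 for Ephb4 and 1.13 to 1.49 for Sema4b. Leaving out Olig2cre/cre replicate 3 gave 8 called guidance genes, 4 of the 5 (all but Sema4b) with Efna4, Nrp1, Plxnd1 and Slit2, and 27 had an unadjusted p under 0.05. Without Olig2cre/cre replicate 1 there were 3 (Epha5, Plxnb3 and Robo1), and without Olig2cre/cre replicate 2 only Plxnb3 was called. Plxnb3 was also the 1 called gene without Olig2cre/+ replicate 3. No guidance gene passed limma's threshold without Olig2cre/+ replicate 1 or 2, where 22 and 20 had an unadjusted p under 0.05. The share of all tested genes at that unadjusted p is not given here for fits without a tumour, so these counts have no background. Over all probes the number of calls was 10 and 9 without Olig2cre/+ replicates 1 and 2, in place of 645, and 67 without Olig2cre/+ replicate 3. It was 297, 119 and 1915 without Olig2cre/cre replicates 1, 2 and 3.

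**Figure D1:**
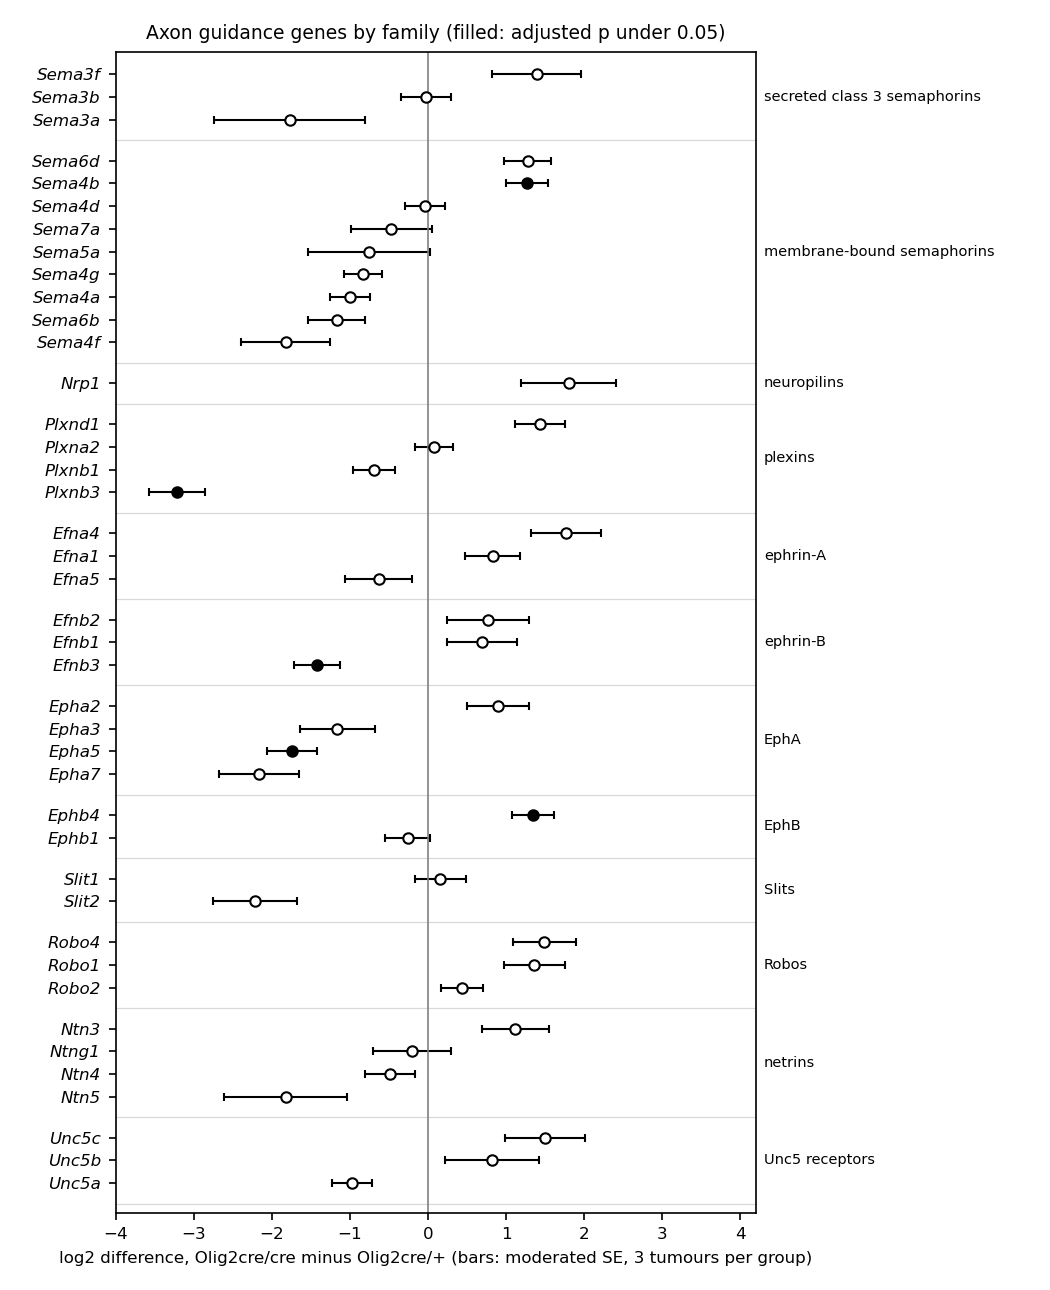
Log2 difference (Olig2cre/cre minus Olig2cre/+) of the 41 tested guidance genes, 1 point per gene by its brightest tested probe, grouped by family, with bars of 1 moderated SE. Filled points passed the adjusted threshold: Plxnb3, Epha5 and Efnb3 on the left, Ephb4 and Sema4b on the right.

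The promoters of the called genes are shown because Olig2 is a basic helix-loop-helix factor, a class that binds the E-box CANNTG, and the groups differ in Olig2. RefSeq windows of GRCm38.p6, from 250 bases before to 50 after the annotated start, were matched by symbol for 4 of the 5 called genes, and Efnb3 had none. The windows with 1 annotated start were chrX:73756853-73757152 for Plxnb3 and chr5:137349859-137350158 for Ephb4, both on the plus strand, and chr5:84417333-84417632 for Epha5 on the minus strand. They are printed 5′ to 3′ on the gene's strand with every CANNTG in capitals.
Plxnb3: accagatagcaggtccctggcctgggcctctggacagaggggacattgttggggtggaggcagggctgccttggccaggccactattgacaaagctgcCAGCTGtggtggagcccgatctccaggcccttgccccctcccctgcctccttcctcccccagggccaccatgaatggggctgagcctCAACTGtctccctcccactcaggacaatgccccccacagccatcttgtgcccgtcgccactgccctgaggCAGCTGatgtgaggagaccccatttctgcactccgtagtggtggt
Epha5: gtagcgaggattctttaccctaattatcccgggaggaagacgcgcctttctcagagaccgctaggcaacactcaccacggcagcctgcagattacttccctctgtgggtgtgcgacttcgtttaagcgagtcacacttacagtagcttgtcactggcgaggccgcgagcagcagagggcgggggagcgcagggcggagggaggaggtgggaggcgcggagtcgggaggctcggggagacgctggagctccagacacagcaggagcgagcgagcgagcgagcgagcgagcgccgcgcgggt
Ephb4: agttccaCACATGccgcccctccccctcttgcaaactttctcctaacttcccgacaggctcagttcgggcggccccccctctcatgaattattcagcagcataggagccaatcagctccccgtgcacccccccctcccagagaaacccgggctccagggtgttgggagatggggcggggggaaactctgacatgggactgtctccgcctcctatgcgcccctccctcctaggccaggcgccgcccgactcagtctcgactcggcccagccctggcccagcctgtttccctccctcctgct
Plxnb3 held 3 E-boxes, 2 of them CAGCTG. Epha5 held 0 and Ephb4 held 1. The 2 windows of Sema4b held 0 and 2. Among all 32851 windows of this length 72.3% held CANNTG, 16.3% held CAGCTG and 17.2% held CAGATG or CATCTG. Over the 49 windows of the 37 tested guidance genes with an entry, 20 (40.8%) held CANNTG, 7 (14.3%) held CAGCTG and 1 (2.04%) held CAGATG or CATCTG. Both strands were searched, and each of the 6-letter forms counted here is also a CANNTG. These are matches of letters and not binding sites.

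Among the semaphorins, 3 of 12 tested genes were higher in the mean of the Olig2cre/cre tumours and 9 were lower, and 1 passed. Sema4b, a membrane-bound class 4 semaphorin, read 11.53, 10.96 and 11.68 in Olig2cre/cre replicates 1 to 3 and 10.04, 10.03 and 10.29 in Olig2cre/+ replicates 1 to 3. Every Olig2cre/cre tumour lay above every Olig2cre/+ tumour, and the gene was detected on all 6 arrays. It rose 2.41-fold (1.27 ± 0.27 log2, SE, limma adjusted p = 0.0491). Its call was lost whichever tumour was left out (adjusted p = 0.0557 to 0.196), while the difference stayed between 1.13 and 1.49.

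Sema6d, a class 6 semaphorin that binds plexin-A1, was measured by 3 tested probes. The brightest read 10.91, 10.07 and 10.55 in the Olig2cre/cre tumours and 9.52, 9.25 and 8.92 in the Olig2cre/+ tumours, with no overlap and a difference of 1.28 ± 0.30 (adjusted p = 0.0625). A second Sema6d probe differed by 1.11 and passed (adjusted p = 0.0457), and a further one differed by 0.64 (adjusted p = 0.260). All 3 probes thus ran the same way, and 1 of them was the remaining guidance probe past the threshold.

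The other membrane-bound semaphorins did not pass, and 4 of them read lower in every Olig2cre/cre tumour than in any Olig2cre/+ tumour. Sema4f, a semaphorin of synapses and of oligodendrocyte precursors, read 4.89, 5.91 and 6.45 in Olig2cre/cre and 6.69, 7.46 and 8.57 in Olig2cre/+ (-1.82 ± 0.57, adjusted p = 0.108), and was not detected in Olig2cre/cre replicate 1. Sema4a, which acts on plexins of vessels and immune cells, was 1.99-fold lower (adjusted p = 0.0768), and Sema4g differed by -0.83 ± 0.24 (adjusted p = 0.0886). The brightest Sema6b probe differed by -1.17 ± 0.36 (adjusted p = 0.107). A second Sema6b probe differed by -1.14 (adjusted p = 0.0827), but a further Sema6b probe differed by only -0.03 (adjusted p = 0.967). Sema4d, the ligand of plexin-B1, and Sema7a, which is anchored in the membrane by a lipid, overlapped between groups (-0.04 and -0.47).

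Sema5a, a ligand of plexin-B3, varied more within the Olig2cre/cre group than between groups. It read 8.14, 11.55 and 9.82 in the Olig2cre/cre tumours and 10.59, 10.91 and 10.26 in the Olig2cre/+ tumours (-0.75 ± 0.78, adjusted p = 0.604). The Olig2cre/cre tumours thus lay on both sides of the Olig2cre/+ tumours, and a second Sema5a probe had the same order within that group (7.84, 10.93 and 9.16). Without Olig2cre/cre replicate 1 the Sema5a difference was 0.10.

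The secreted class 3 semaphorins split. Sema3a, the classical growth cone-collapsing semaphorin, read 4.78, 8.75 and 8.34 in the Olig2cre/cre tumours and 8.93, 9.01 and 9.24 in the Olig2cre/+ tumours. It was not detected in Olig2cre/cre replicate 1, while the other 5 tumours lay close together, and the difference of -1.77 ± 0.97 (adjusted p = 0.308) shrank to -0.51 without that tumour. Sema3f, which repels through neuropilin-2, read 11.24, 9.36 and 9.16 in Olig2cre/cre and 8.02, 8.72 and 8.86 in Olig2cre/+ (1.39 ± 0.57, adjusted p = 0.188), with Olig2cre/cre replicate 1 far above the rest. A second Sema3f probe differed by 1.63 (adjusted p = 0.153). Sema3b overlapped between groups (-0.03), and Sema3c, Sema3d, Sema3e and Sema3g were not detected on any array.

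**Figure D2:**
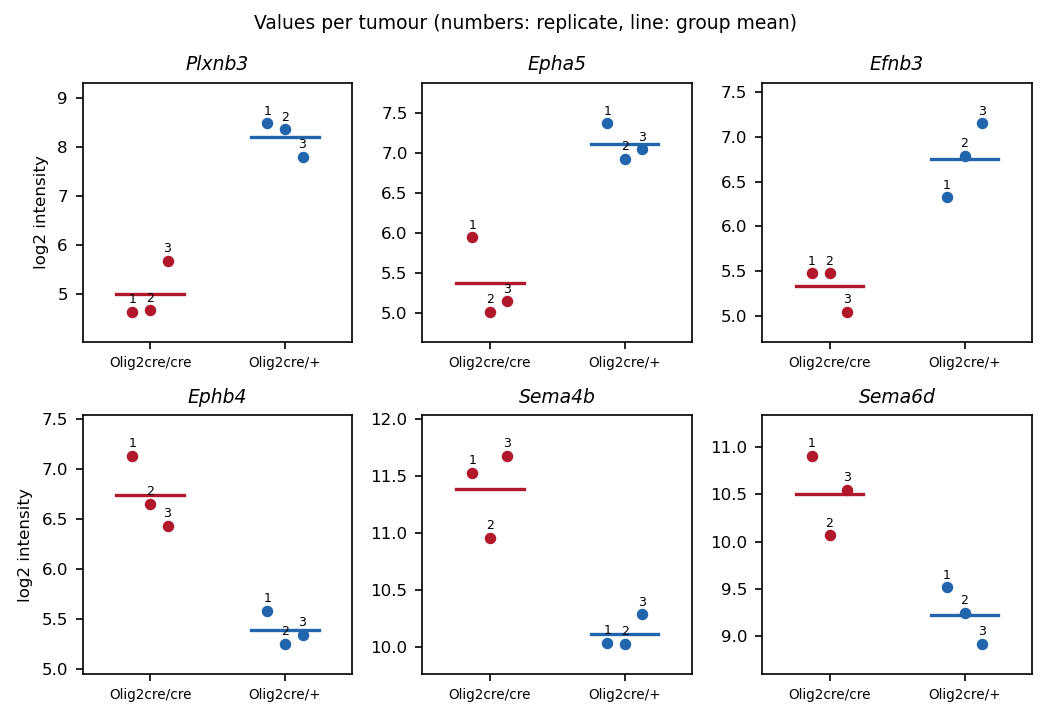
Log2 intensity of the 5 called guidance genes and of Sema6d by its brightest probe in each tumour, Olig2cre/cre on the left and Olig2cre/+ on the right of each panel, numbered by replicate, with a line at each group mean. In every panel the 3 Olig2cre/cre tumours lie on 1 side of the 3 Olig2cre/+ tumours, and Plxnb3 has the widest gap (5.69 as the highest Olig2cre/cre value and 7.81 as the lowest Olig2cre/+ value).

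Among the semaphorin receptors, Plxnb3 had the largest difference of the 41 guidance genes. Plxnb3 encodes plexin-B3, a receptor of Sema5a that is known from oligodendrocytes. It read 4.65, 4.68 and 5.69 in Olig2cre/cre replicates 1 to 3 and 8.49, 8.37 and 7.81 in Olig2cre/+ replicates 1 to 3. Of the Olig2cre/cre tumours only replicate 3 had a detected signal, and it was the highest of them. Plxnb3 fell 9.28-fold (-3.21 ± 0.36 log2, SE, limma adjusted p = 0.0146), or 6.55-fold when each undetected value was set to the lowest signal detected on its array. Without Olig2cre/cre replicate 3 the difference was -3.56 (adjusted p = 0.00317). Without Olig2cre/+ replicate 1 or 2 Plxnb3 was no longer called (-3.09 and -3.11, adjusted p = 0.0624 and 0.0959). With no background correction it was still called at a smaller difference of -1.43 (adjusted p = 0.0214).

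Most markers of the oligodendrocyte lineage were, like Plxnb3, lower in the mean of Olig2cre/cre. All 10 tested genes of the oligodendrocyte list were lower in the mean of Olig2cre/cre, 3 of them past the threshold, and the mean of the list ran from 7.20 to 10.62 in the Olig2cre/cre tumours and from 11.81 to 11.96 in the Olig2cre/+ tumours. Ermn and Aspa of that list were not detected on any array. Of 9 precursor genes 8 were lower, 3 past the threshold, and the list mean ran from 7.68 to 8.50 in Olig2cre/cre and from 9.47 to 10.65 in Olig2cre/+. Opalin, a myelin protein, read 4.65, 4.82 and 7.41 in Olig2cre/cre and 10.88, 10.86 and 10.65 in Olig2cre/+ (-5.17 ± 0.70, adjusted p = 0.0173). In RNA of whole tumours, fewer cells of a type and less RNA per cell cannot be told apart. The part of these cells in the Plxnb3 result was not tested.

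Plexin-B1, a receptor of Sema4d, read 6.09, 6.73 and 6.77 in Olig2cre/cre and 7.17, 7.17 and 7.30 in Olig2cre/+ at its probe of Plxnb1 (-0.69 ± 0.27, adjusted p = 0.165). Plxna2, a receptor of class 6 semaphorins, differed little and overlapped (0.08 ± 0.24, adjusted p = 0.872). Plxnd1 and Nrp1, which encode semaphorin receptors that are also found on endothelium, ran the other way. Plxnd1 read 7.44, 6.87 and 6.30 in Olig2cre/cre and 5.40, 5.54 and 5.34 in Olig2cre/+ (1.44 ± 0.32, adjusted p = 0.0558), and passed without Olig2cre/cre replicate 3 (1.73, adjusted p = 0.0159). Nrp1, the binding receptor of Sema3a and a coreceptor of VEGF, read 12.71, 11.21 and 10.15 in Olig2cre/cre and 9.39, 9.90 and 9.37 in Olig2cre/+ (1.80 ± 0.61, adjusted p = 0.126). Its second probe differed by 1.67 (adjusted p = 0.164), and the brighter Nrp1 probe passed without Olig2cre/cre replicate 3 (2.41, adjusted p = 0.0244) and differed by 1.12 without Olig2cre/cre replicate 1 (adjusted p = 0.170). For Plxnd1 and Nrp1 the groups did not overlap, and replicate 1 was the highest and replicate 3 the lowest of the Olig2cre/cre tumours.

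Eph receptors of class A were lower in the mean of Olig2cre/cre for 3 of 4 tested genes. Epha5, a receptor of ephrin-A ligands in brain neurons, read 5.95, 5.02 and 5.15 in Olig2cre/cre replicates 1 to 3 and 7.37, 6.93 and 7.05 in Olig2cre/+ replicates 1 to 3, with a signal detected in 1 of the 3 Olig2cre/cre tumours and in every Olig2cre/+ tumour. It fell 3.35-fold (-1.74 ± 0.32 log2, SE, limma adjusted p = 0.0346), or 2.97-fold with undetected values raised. It remained called without Olig2cre/cre replicate 1 or 3 (-2.06 and -1.64, adjusted p = 0.0271 and 0.0335). It was not called without Olig2cre/cre replicate 2 (adjusted p = 0.0946) or without Olig2cre/+ replicate 1, 2 or 3 (adjusted p = 0.105, 0.146 and 0.106), nor with no background correction (-0.63, adjusted p = 0.0654).

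Epha7 had a larger difference and did not pass. Its brightest probe read 5.95, 4.85 and 5.38 in Olig2cre/cre and 6.67, 7.50 and 8.49 in Olig2cre/+ (-2.16 ± 0.51, adjusted p = 0.0605). A further Epha7 probe was not detected in any Olig2cre/cre tumour and was at least 2.22-fold higher in Olig2cre/+ (adjusted p = 0.0838). Epha3 read 4.53, 5.76 and 5.13 in Olig2cre/cre and 5.43, 6.47 and 7.01 in Olig2cre/+ (-1.16 ± 0.48, adjusted p = 0.191), and its groups overlapped. Epha2, an Eph receptor of epithelia and of glioblastoma, ran the other way at 5.90, 6.81 and 5.29 in Olig2cre/cre and 4.97, 5.02 and 5.29 in Olig2cre/+ (0.90 ± 0.40, adjusted p = 0.212), with overlap at replicate 3.

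The ephrin ligands differed in both directions. Efnb3, which encodes the midline ephrin-B3, read 5.48, 5.48 and 5.05 in Olig2cre/cre replicates 1 to 3 and 6.33, 6.79 and 7.15 in Olig2cre/+ replicates 1 to 3. Efnb3 was detected in 1 of the 3 Olig2cre/cre tumours and in every Olig2cre/+ tumour, with no overlap. It fell 2.68-fold (-1.42 ± 0.29 log2, SE, limma adjusted p = 0.0460), or 2.48-fold with undetected values raised. The call held without Olig2cre/cre replicate 3 (-1.28, adjusted p = 0.0497) and was lost without any other tumour (adjusted p = 0.0772 to 0.192) and with no background correction (-0.48, adjusted p = 0.111).

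Efna4, a ligand of EphA receptors, read 7.81, 7.09 and 6.35 in Olig2cre/cre and 4.89, 5.99 and 5.07 in Olig2cre/+, where it was detected in 1 of the 3 tumours. The groups did not overlap, and the difference of 1.77 ± 0.45 did not pass (adjusted p = 0.0730), although it passed without Olig2cre/cre replicate 3 (2.14, adjusted p = 0.0251). A second Efna4 probe differed by 1.39 (adjusted p = 0.0932). Efna1, an ephrin induced in endothelium by inflammation, also did not overlap between groups (0.83 ± 0.35, adjusted p = 0.198). Efna5, a ligand of EphA receptors in topographic maps, overlapped between groups (-0.63 ± 0.43, adjusted p = 0.414), with Olig2cre/+ replicate 3 the highest at 11.07.

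The receptor Ephb4 rose while the groups overlapped for its ligand Efnb2. Ephb4, the venous Eph receptor, read 7.13, 6.65 and 6.43 in Olig2cre/cre replicates 1 to 3 and 5.58, 5.25 and 5.34 in Olig2cre/+ replicates 1 to 3, where it was detected in 2 of the 3 tumours. It rose 2.54-fold (1.35 ± 0.27 log2, SE, limma adjusted p = 0.0430), or 2.47-fold with undetected values raised. Without Olig2cre/cre replicate 3 the difference was 1.50 (adjusted p = 0.0227). The call was lost without any other tumour (adjusted p = 0.0789 to 0.192) and with no background correction (0.46, adjusted p = 0.112). Efnb2, the arterial ephrin, read 7.46, 7.38 and 6.07 in Olig2cre/cre and 5.41, 6.14 and 7.04 in Olig2cre/+ (0.77 ± 0.53, adjusted p = 0.418). Efnb1 likewise overlapped (0.69 ± 0.45, adjusted p = 0.385). Ephb1, a receptor of ephrin-B ligands, read 9.93, 9.80 and 10.63 in Olig2cre/cre and 10.37, 10.19 and 10.58 in Olig2cre/+ (-0.26 ± 0.29, adjusted p = 0.632).

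In the group means most neuron markers were lower in Olig2cre/cre, as were Epha5 and Efnb3, and most vascular markers were higher, as was Ephb4. The order of the Olig2cre/cre tumours was not always shared between lists and genes. Of 16 tested neuron markers 15 were lower in the mean of Olig2cre/cre and 0 passed limma's adjusted threshold, while 10 had an unadjusted p under 0.05. The mean of the neuron list was 7.28, 9.20 and 10.99 in Olig2cre/cre replicates 1 to 3 and 10.88, 11.67 and 12.51 in Olig2cre/+ replicates 1 to 3. Within Olig2cre/cre this list was highest in replicate 3, where Epha5 (5.15) and Efnb3 (5.05) were not detected. Snap25, Nefl and Gad2 of that list were not detected on any array. Of 11 endothelial markers 8 were higher in the mean of Olig2cre/cre, 4 of them past the threshold, and the list mean ran from 8.49 to 8.96 in Olig2cre/cre and from 7.35 to 7.83 in Olig2cre/+. The surface proteins Emcn and Pecam1 differed by 3.06 and 2.55 (adjusted p = 0.0146 for each). Pericyte or fibroblast markers were higher for 6 of 7 genes, 1 past the threshold, with list means from 8.22 to 8.64 in Olig2cre/cre and from 6.99 to 7.47 in Olig2cre/+. All 11 microglia or macrophage markers were higher, 2 past the threshold, with list means from 9.86 to 11.37 in Olig2cre/cre and at most 9.61 in Olig2cre/+. Astrocyte markers ran both ways, 6 higher and 5 lower, and overlapped (10.28 to 11.03 in Olig2cre/cre and 10.65 to 11.12 in Olig2cre/+). Of 8 immature neuron markers 3 were higher and 5 lower, with a median difference of -0.91. The list means overlapped (7.52 to 8.90 in Olig2cre/cre and 8.37 to 8.59 in Olig2cre/+). Against that median, the interneuron factors Dlx1 and Dlx2 were higher and passed. Of 6 ependymal or choroid plexus markers 2 were higher and 4 lower. The part of these cells in the results for Epha5, Efnb3, Ephb4, Plxnd1, Nrp1 and Robo4 was not tested.

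**Figure D3:**
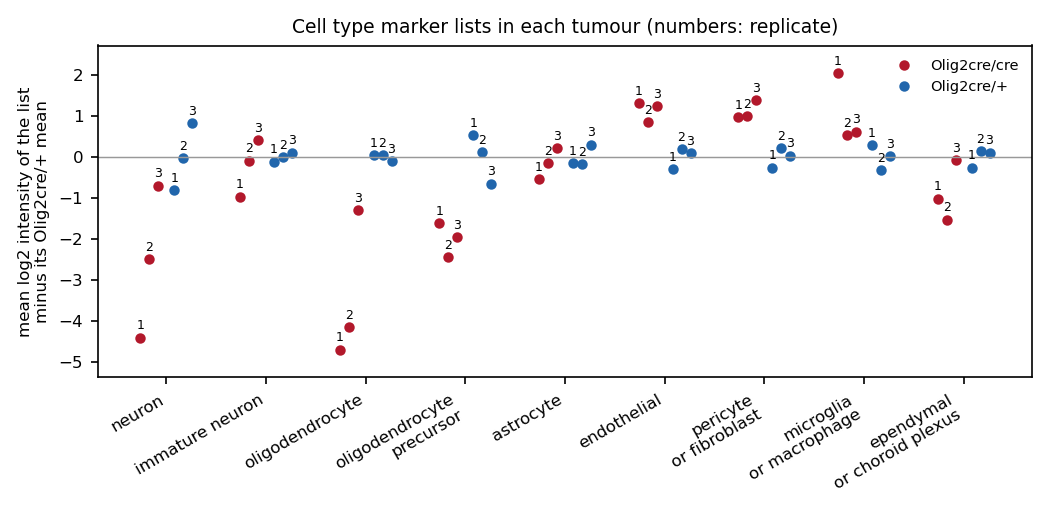
Mean log2 intensity of each cell type marker list in each tumour, relative to the Olig2cre/+ mean of that list, with Olig2cre/cre on the left and Olig2cre/+ on the right of each pair and points numbered by replicate. Olig2cre/cre tumours lie below 0 for the oligodendrocyte and precursor lists and above 0 for the endothelial and pericyte or fibroblast lists, and Olig2cre/cre replicate 3 lies level with Olig2cre/+ replicate 1 for the neuron list.

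All 3 tested Robo receptors were higher in the mean of Olig2cre/cre, also under each scaling tried, and none passed limma's adjusted threshold, while 2 had an unadjusted p under 0.05. Robo1, a Slit receptor of migrating neurons and progenitors, read 10.52, 12.03 and 11.38 in Olig2cre/cre and 9.85, 9.95 and 10.04 in Olig2cre/+ (1.36 ± 0.39, adjusted p = 0.0905). Its Olig2cre/+ values lay within 0.2 of each other and below every Olig2cre/cre value, and it passed without Olig2cre/cre replicate 1 (1.74, adjusted p = 0.0450). Robo4, the endothelial member of the family, read 10.64, 9.27 and 9.80 in Olig2cre/cre and 8.21, 8.85 and 8.17 in Olig2cre/+ (1.49 ± 0.40, adjusted p = 0.0792). Robo2 differed by 0.44 ± 0.27 with overlapping groups (adjusted p = 0.359).

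Slit2, a ligand of Robo1 and Robo2, read 5.06, 5.42 and 6.59 in Olig2cre/cre and 7.05, 7.95 and 8.72 in Olig2cre/+, with no overlap and no detected signal in Olig2cre/cre replicate 1. The difference of -2.21 ± 0.54 did not pass (adjusted p = 0.0664) and passed without Olig2cre/cre replicate 3 (-2.67, adjusted p = 0.0211). Slit3 was detected on 2 arrays only and was therefore not tested. It read 8.21, 6.59 and 4.98 in Olig2cre/cre and 5.10, 4.98 and 5.20 in Olig2cre/+, with detected signals in Olig2cre/cre replicates 1 and 2. Olig2cre/cre replicate 3 lay at the level of the Olig2cre/+ tumours, in which Slit3 was not detected. Slit1 overlapped between groups (0.16 ± 0.33, adjusted p = 0.807).

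**Figure D4:**
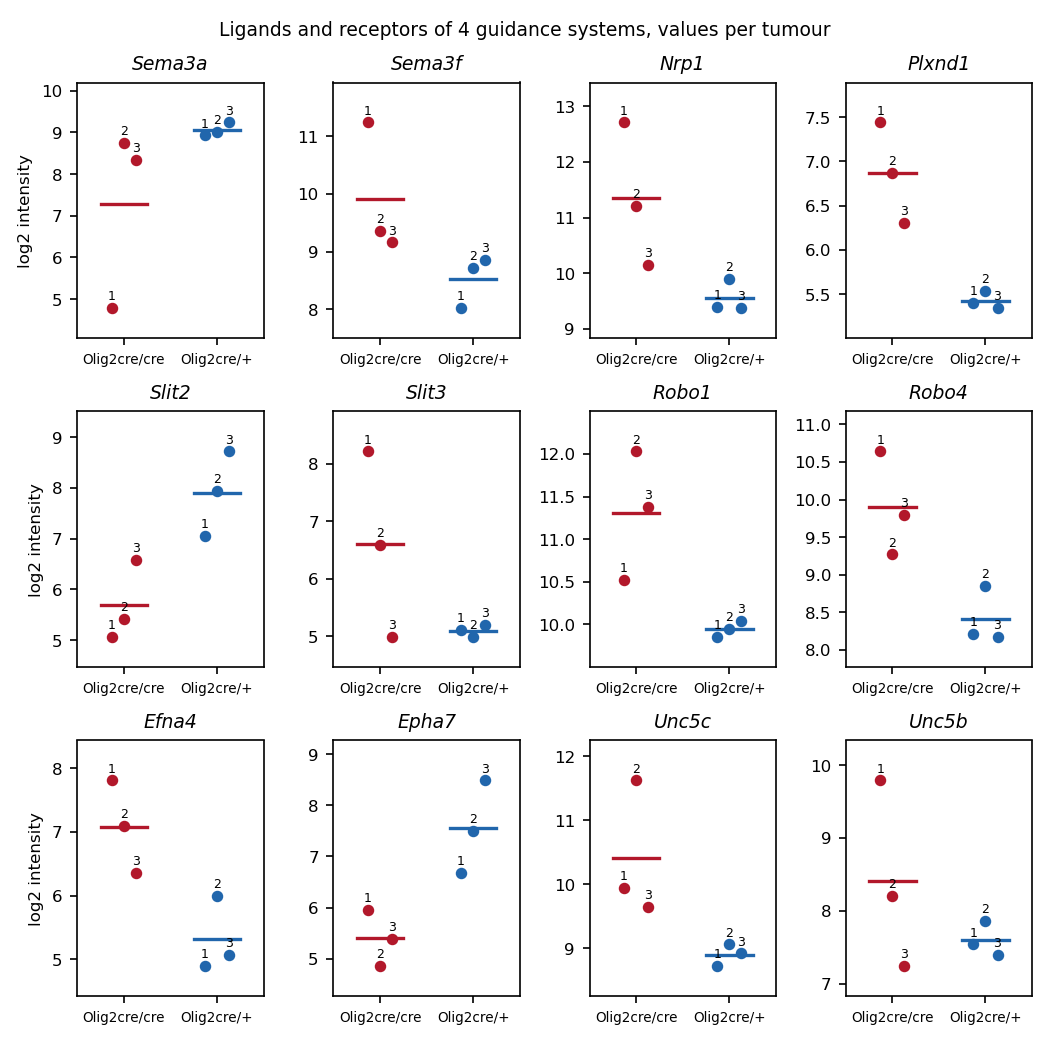
Log2 intensity per tumour of 12 ligands and receptors of the semaphorin, Slit, ephrin and netrin systems, by the brightest tested probe (Slit3 by its 1 probe), Olig2cre/cre on the left and Olig2cre/+ on the right, numbered by replicate, with a line at each group mean. Replicate 1 of Olig2cre/cre is lowest for Sema3a (4.78) and highest for Sema3f, Nrp1, Slit3 and Unc5b, and Olig2cre/cre replicate 2 is highest for Robo1 and Unc5c.

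No netrin and no netrin receptor passed limma's adjusted threshold, while 1 netrin and 2 Unc5 genes had an unadjusted p under 0.05. Ntn3 read 11.08, 10.53 and 9.88 in Olig2cre/cre and 9.78, 9.73 and 8.63 in Olig2cre/+ (1.12 ± 0.43, adjusted p = 0.167), and its second probe differed by 0.70 (adjusted p = 0.435). Ntn5 read 5.62, 7.02 and 5.14 in Olig2cre/cre and 6.25, 7.83 and 9.17 in Olig2cre/+ (-1.82 ± 0.79, adjusted p = 0.204), the widest range within the Olig2cre/+ group of any tested guidance gene. Ntn4, a basement membrane netrin, and Ntng1, a netrin-G held to the membrane by a lipid, overlapped between groups (-0.49 and -0.20). Ntn1, the founding netrin, was detected only in Olig2cre/cre replicate 1 (5.93) and was not tested.

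Unc5c, a repulsive netrin receptor, read 9.94, 11.62 and 9.65 in Olig2cre/cre and 8.72, 9.06 and 8.92 in Olig2cre/+ (1.50 ± 0.51, adjusted p = 0.127). Its groups did not overlap, and Olig2cre/cre replicate 2 was the highest. Unc5b, the Unc5 receptor of vessels, read 9.79, 8.21 and 7.24 in Olig2cre/cre and 7.54, 7.86 and 7.39 in Olig2cre/+ (0.82 ± 0.60, adjusted p = 0.451), and differed by 0.13 without Olig2cre/cre replicate 1. Unc5a was not detected in any Olig2cre/cre tumour and was at least 1.42-fold higher in Olig2cre/+ (adjusted p = 0.0833).

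Within the groups, the guidance genes varied more among Olig2cre/cre tumours. The range over the 3 tumours had a median of 1.12 in Olig2cre/cre and 0.62 in Olig2cre/+ over the 41 genes. It exceeded 2 in Olig2cre/cre for 6 genes (Sema3a, Sema3f, Sema5a, Nrp1, Ntng1 and Unc5b), and in Olig2cre/+ for Ntn5 alone. In all 6 of these genes Olig2cre/cre replicate 1 held the highest or the lowest value of its group. The SD was larger in Olig2cre/cre for 24 of the 41 genes (58.5%), and for 64.6% of all tested genes, so the wider spread was not limited to this set.

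**Figure D5:**
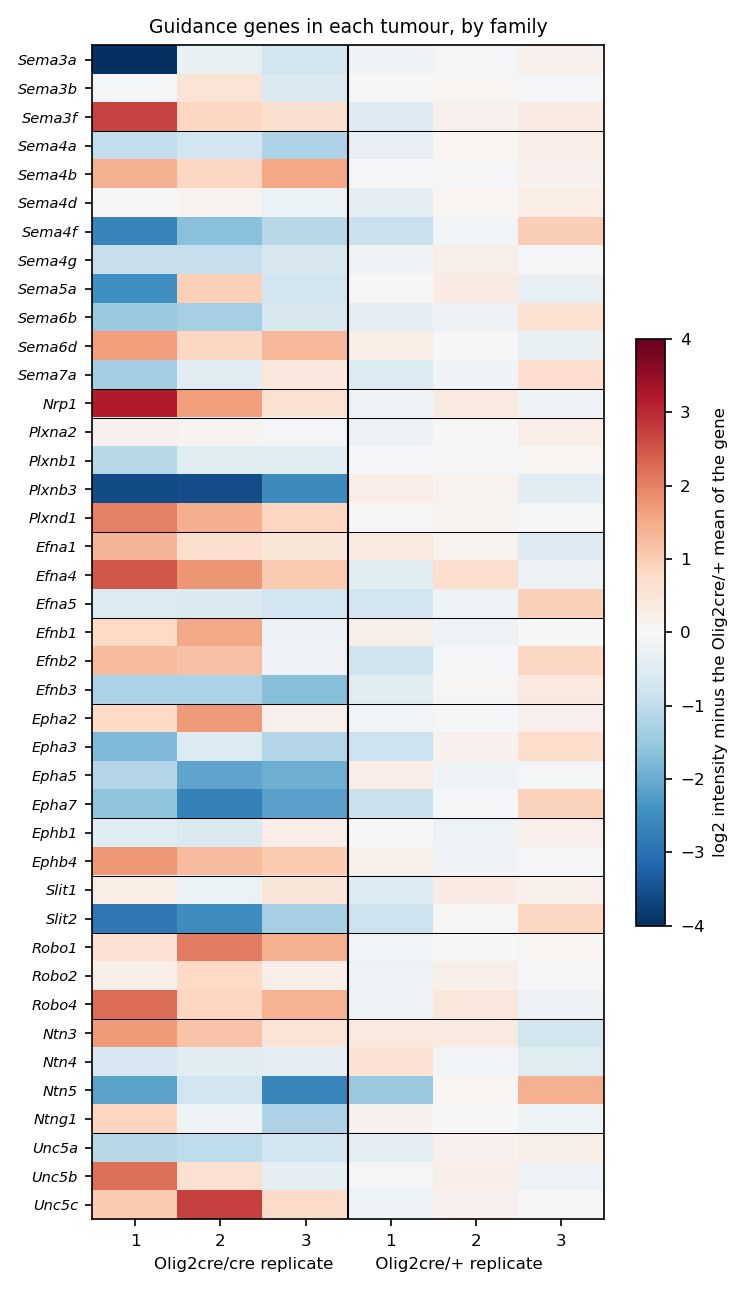
Log2 intensity of the 41 tested guidance genes (rows, by family) in each tumour (columns, Olig2cre/cre left of Olig2cre/+), as the difference from the gene's Olig2cre/+ mean, with the colour scale ending at 4 in either direction. Plxnb3, Slit2, Epha5 and Epha7 are below the Olig2cre/+ mean in all 3 Olig2cre/cre tumours, Robo1, Robo4, Plxnd1 and Nrp1 are above it, and Sema3a is far below it in Olig2cre/cre replicate 1 alone.

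Agreement between probes of a gene could be read for 11 guidance genes with several tested probes. The differences had 1 sign in 10 of them, and in Ntng1 they had both (-0.20, -0.22 and 0.04). The remaining 26 guidance genes were not tested. In 14 of them no probe was detected on any array: Sema3c, Sema3d, Sema3e, Sema3g, Plxna1, Plxna3, Plxna4, Efna2, Epha1, Epha10, Ntng2, Unc5d, Unc50 and Unc5cl. The other 12 had a probe detected on 1 or 2 arrays: Sema6a, Sema6c, Nrp2, Plxnc1, Efna3, Epha4, Epha6, Epha8, Ephb3, Ephb6, Slit3 and Ntn1. Ephb6, an Eph receptor without kinase activity, read 4.61, 4.66 and 4.72 in Olig2cre/cre, with no detected signal, and 4.89, 6.12 and 7.51 in Olig2cre/+, with detected signals in replicates 2 and 3.

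Further genes of guidance signalling were read from lists of other cues and coreceptors and of cytoplasmic effectors. Of 25 tested cues and coreceptors 1 rose and 2 fell, and of 46 tested effectors 1 rose and 3 fell (against calls in 4.78% of all genes). The median differences were -0.85 and -0.10. Dpysl5, a collapsin response mediator protein of growth cones, read 6.28 ± 0.29 in Olig2cre/cre and 8.99 ± 0.51 in Olig2cre/+ (SD, n = 3 each), and fell 6.57-fold (limma adjusted p = 0.0157). Alcam, an adhesion molecule that bundles axons, fell 7.37-fold (adjusted p = 0.0319), and Cntn1, a contactin of axons and oligodendrocyte precursors, 4.10-fold (adjusted p = 0.0467). Kalrn, which shapes dendritic spines, fell 5.32-fold (adjusted p = 0.0467) and Limk2, a kinase of cofilin, 2.60-fold (adjusted p = 0.0489). Cxcr4, the receptor of Cxcl12, rose 3.79-fold (adjusted p = 0.0497) and the actin-associated Pdlim1 2.65-fold (adjusted p = 0.0284).

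The number of these calls, 7 in the main fit, also changed with the tumours in the fit. Their number was 22 without Olig2cre/cre replicate 3, and 2 and 1 without Olig2cre/cre replicates 1 and 2. It was 1 without Olig2cre/+ replicate 3 and 0 in limma without Olig2cre/+ replicate 1 or 2, where 38 and 31 genes of the lists had an unadjusted p under 0.05. These 2 counts likewise have no share of all tested genes beside them. The neuron and oligodendrocyte lists given above were lower in the mean of Olig2cre/cre, as were Dpysl5, Alcam, Cntn1 and Kalrn. The order of the tumours was not always shared. Within Olig2cre/cre both lists rose from replicate 1 to replicate 3, as did Dpysl5. Alcam and Cntn1 were lowest in Olig2cre/cre replicate 2, and Kalrn was highest there. The part of neurons and oligodendrocytes in the results for these genes was not tested.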

How the data were processed

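Per the labels' protocols, total RNA was extracted with Trizol, cleaned and DNase-treated on RNeasy columns, and turned into biotin-labelled cRNA for Illumina arrays. The authors deposited linear signal intensity for each probe, not normalized between arrays, and a detection p-value beside each, per the file headers. Array software and batches: not given in the sources used here. A second deposited table holds intensity values that equal the quantile-normalized signals, on a linear scale and not centred, but with replicate numbers 1 and 3 exchanged within each group. Groups are unaffected; which of the 45 and 47 day ages belongs to them is uncertain, and arrays are numbered by the signal table.

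The signals were corrected with normexp (negative controls inferred from detection p-values, offset 16), quantile-normalized and log2-transformed with limma 3.58.1 in R 4.3.3 (neqc). Probes detected (p under 0.05) on 3 or more of 6 arrays were tested with lmFit and eBayes, genotype as the only term, two-sided, adjusted by Benjamini-Hochberg over 14606 probes. The number of arrays limits the precision. With a probe undetected in a whole group, a fold is a lower bound, against the lowest detected signal of each array or the probe's own if higher.

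Platform annotation named 23978 of 25697 probes (0 with several symbols, 1719 unnamed here); 23962 matched a current symbol of GRCm38.p6. The guidance genes, the families and the lists were chosen with earlier results of these data known. Named genes are Olig2, any guidance gene, list genes past the threshold and up to 2 measured markers per cell type list, besides markers undetected on every array. The procedure was tested on simulated data. Alternatives were other background correction and scaling, other detection filters, array weights, the replicate number as a block, probe means per gene, and leaving out each tumour.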

Additional observations from a re-analysis of the deposited data

How the results depend on the processing

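The number of called guidance genes (5) was 2 on the authors' processed values and 2 without background correction, 1 with no detection filter and 1 among probes detected on all 6 arrays, where 23 of the 41 genes could be tested. It was 13 with array weights, 4 with cyclic loess and 5 with the mean of all probes of a gene. The calls over all probes (645) numbered 411 on the authors' values, 411 without background correction, 230 with no detection filter and 1860 with array weights. The calls in the guidance signalling lists (7) numbered 3 with no detection filter and 20 with array weights. Leaving out 1 tumour, with the other 5 arrays normalized again, gave 0 to 8 guidance genes, 9 to 1915 probes and 0 to 22 list genes. The median difference over the guidance genes (-0.04) was 0.77 among probes detected on all 6 arrays, a filter that leaves out every probe undetected on at least 1 array. No scaling moved the median of all tested probes by over 0.1.

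With the replicate block the counts were 9 guidance genes, 1382 probes and 15 list genes. The labels give same-numbered tumours the same age and name no shared litter, batch or day. Deviations of same-numbered tumours correlated at 0.19, 0.02 and 0.30, and not every tumour correlated best with its own number, so the numbers were not taken as pairs. The block ended the Efnb3 call (adjusted p = 0.0546) and kept the other 4, and it added calls for Slit2 (0.0191), Sema4f (0.0233), Sema6b (0.0451), Plxnd1 (0.0464) and Sema6d (0.0498).

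Directions changed in 9 cases, all of them in genes that were not called. Slit1 was -0.04 with array weights and -0.11 without Olig2cre/+ replicate 1, Plxna2 -0.04 without Olig2cre/+ replicate 1, and Sema5a 0.10 without Olig2cre/cre replicate 1. Without Olig2cre/cre replicate 3, Sema3b was 0.24, Sema4d 0.07 and Ntng1 0.32. Sema3b was 0.01 without Olig2cre/+ replicate 2 and Sema4d 0.10 without Olig2cre/+ replicate 3. Over the leave-outs the differences ran from -0.32 to 0.24 for Sema3b, -0.22 to 0.10 for Sema4d, -1.61 to 0.10 for Sema5a, -0.04 to 0.22 for Plxna2, -0.11 to 0.38 for Slit1 and -0.72 to 0.32 for Ntng1. The cause of these changes was not tested. Signals close to background limit Plxnb3, Epha5, Efnb3 and Ephb4, each undetected on at least 1 array, for which the fold depends on the background correction.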
